A study of Mus musculus with 31 samples.

Results

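Collagens, laminins and nidogens are the structural proteins of the extracellular matrix. The genes described here were all protein-coding genes whose GENCODE M21 symbol names a collagen chain, a laminin alpha, beta or gamma chain, or a nidogen. This rule found 58 of the 55536 genes in the count tables. They were 11 fibrillar collagens, 19 basement membrane genes (11 laminin chains, 2 nidogens and 6 type IV collagen chains), 27 other collagens, and Col4a3bp. Col4a3bp matches the pattern by its name, but it codes for a ceramide transporter, so it is set apart and the other 57 are called matrix genes below.

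Fibrillar collagens assemble into the banded fibres that give connective tissue, including the sheaths of nerve, its tensile strength. Laminins polymerise on cell surfaces into a sheet, type IV collagen forms a covalent network beside it, and nidogens bridge these networks into a basement membrane. In peripheral nerve every Schwann cell and its axon lie inside such a basement membrane, with collagen fibrils of the endoneurium around it, while in the spinal cord parenchyma basement membranes lie mainly at the pial surface and around vessels.

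The libraries came from mice and held RNA recovered by translating ribosome affinity purification (TRAP), in which a ribosomal protein carrying a green fluorescent tag is pulled down with the RNA on its ribosomes. Cre libraries were from Nav1.8-Cre;L10a-eGFP-fl/fl mice, in which a Cre recombinase driven from the sodium channel gene Scn10a is expected to switch on the tag in nociceptive and other sensory neurons of that lineage. Control libraries were from L10a-eGFP-fl/fl mice without Cre, so all 8 groups carried the floxed L10a-eGFP allele and RNA in the controls was recovered without Cre. Central axon libraries were made from lumbar dorsal root with spinal cord (4 Cre, 4 control), peripheral axon libraries from sciatic nerve (4 Cre, 3 control) and soma libraries from lumbar dorsal root ganglia. Batch 1 held the central axons with somas (4 Cre, 4 control) and batch 2 the peripheral axons with other somas (4 Cre, 4 control). The labels give no age, treatment or pooling. They estimate the RNA yield below 100 pg for axon and below 1 ng for soma samples, so that compartment and RNA input cannot be told apart.

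Total counts were 3601399 to 19637292 per library, at which 3 counts, the smallest number treated as detected, are 0.153 to 0.833 CPM. A CPM is a count divided by the total count of its library and multiplied by 1000000. The libraries have no molecular identifiers, so such floors cover counting error only. Scn10a, which checks the pulldown, was 45.1 to 421 CPM in central axon Cre libraries and 0 to 29.9 CPM in their controls, 42.1 to 304 CPM against 0 to 127 CPM in peripheral axons, 312 to 505 CPM against 33.4 to 625 CPM in batch 1 somas, and 313 to 432 CPM against 286 to 598 CPM in batch 2 somas. It did not pass the test between Cre and control in any of these 4 compartments. Soma control 3 of batch 1 stood apart, with a scaling factor of 0.0391 where the other 30 libraries had 0.823 to 1.54. Defining markers of sensory neurons were detected in every group. Markers of other cells of the tissue were detected too, and their values stand beside the results they move with.

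Several matrix genes lie in pairs in the genome, and 3 of these pairs are transcribed away from a shared start region. Col4a1 and Col4a2, which code for the chains of the ubiquitous type IV collagen, lie head to head on chromosome 8 (GRCm38, minus strand chr8:11198423-11312826 and plus strand chr8:11312805-11449287), and their annotated 5′ ends overlap by 22 bases. These bases, chr8:11312805-11312826 on the plus strand, are shown because both genes start in them; RefSeq's window is the source:
Col4a1/Col4a2 overlap: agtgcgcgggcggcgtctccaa
Col4a3 and Col4a4 on chromosome 1 are separated by 71 bases, and Col4a5 and Col4a6 on chromosome X by 1308 bases, also head to head. Col3a1 and Col5a2 lie tail to tail on chromosome 1, and Col6a1 with Col6a2 lie on the same strand of chromosome 10. Of the matrix genes, 41 had a RefSeq window of 250 bases before to 50 bases after the start (45 windows, GRCm38.p6). The box CCAAT (or ATTGG on the other strand) was in 33.3% of them and in 37.4% of all 32817 windows, TATAAA (or TTTATA) in 11.1% and 13.6%, and GGGCGG (or CCGCCC) in 60% and 35.6%. These matches are descriptions of letters, and motifs of different kinds can share a base at their ends. The exon-free bases before the start of Col3a1 (chr1:45311288-45311537, plus strand) and of Nid1 (chr13:13437352-13437550, plus strand) are shown as an example from the fibrillar and from the basement membrane group, with these motifs in capitals:
Col3a1: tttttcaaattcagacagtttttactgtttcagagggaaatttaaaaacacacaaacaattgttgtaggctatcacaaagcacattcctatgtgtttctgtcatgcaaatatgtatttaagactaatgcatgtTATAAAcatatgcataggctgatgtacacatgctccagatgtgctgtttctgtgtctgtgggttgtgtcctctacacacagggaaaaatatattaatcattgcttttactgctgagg
Nid1: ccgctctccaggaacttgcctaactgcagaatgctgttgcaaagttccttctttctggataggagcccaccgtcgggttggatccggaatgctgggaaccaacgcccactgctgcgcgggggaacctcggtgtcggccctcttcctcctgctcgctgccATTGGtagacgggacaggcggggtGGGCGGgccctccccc
The stretch before Col3a1 holds 1 TATAAA, and the stretch before Nid1 holds 1 CCAAT box, read on the other strand, and 1 GGGCGG.

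As group means, matrix genes took the largest share of counts in the 2 sciatic nerve groups and the smallest in batch 2 somas from Cre mice, although single libraries of other groups reached into both ranges. In the peripheral axon controls they were 0.945%, 3.05% and 2.52% of all counts, and in the peripheral axon Cre libraries 0.882%, 0.845%, 0.632% and 1.24%. These groups overlapped. The batch 2 soma Cre libraries had 0.0451%, 0.0667%, 0.0273% and 0.0325%, and their controls 0.153%, 0.449%, 0.642% and 0.242%, so that every control was above every Cre library. In central axons the Cre libraries had 0.106%, 0.363%, 0.0678% and 0.224%, and the controls 0.429%, 0.398%, 0.557% and 0.248%. The batch 1 somas had 0.0266%, 0.166%, 0.0463% and 0.206% with Cre. Their controls had 0.656%, 0.0624%, 1.00% and 0.628%, where 0.0624% was the library that stands apart. Groups overlapped in central axons and in batch 1 somas.

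As group means, the controls held 2.15 times the share of the Cre libraries in central axons, 2.42 times in peripheral axons, 5.29 times in batch 1 somas and 8.67 times in batch 2 somas. With TMM-normalised totals, which rescale the control library of batch 1 that stands apart, the ratio was 9.13 in batch 1 somas and 6.89 in batch 2 somas. Peripheral axon Cre libraries held 21.0 times the share of batch 2 soma Cre libraries, without overlap, and peripheral axon controls 5.84 times that of batch 2 soma controls, also without overlap. Central axon Cre libraries held 1.71 times the share of batch 1 soma Cre libraries, with overlap. In these bulk samples fewer cells of a type and less RNA per cell cannot be told apart.

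**Figure D1:**
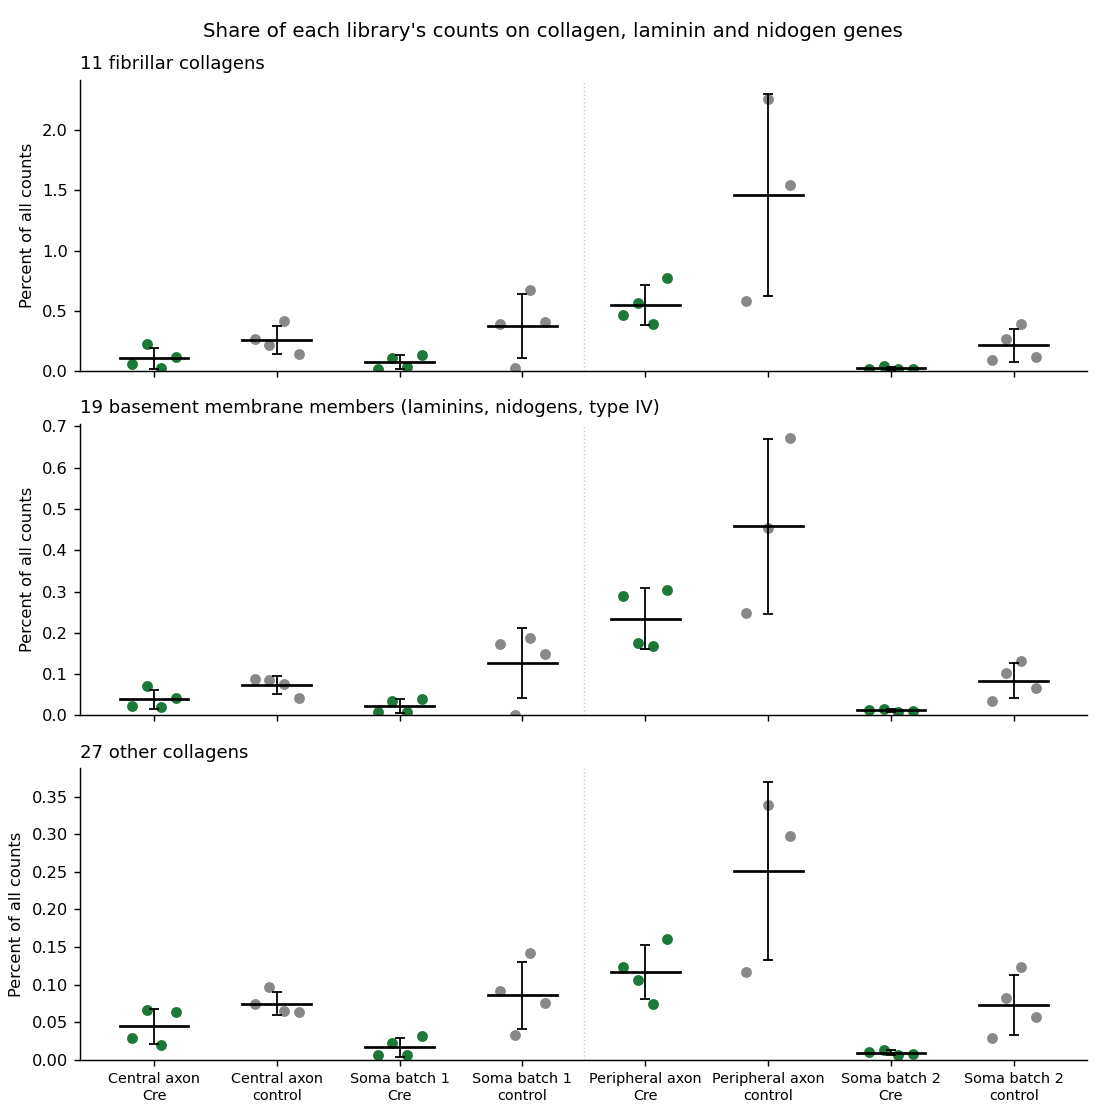
Percent of all counts (y axis, from 0) on the fibrillar collagens (top), basement membrane genes (middle) and other collagens (bottom) in each library, by group on the x axis. Points are libraries (green Cre, grey control), horizontal bars are means and error bars SD, drawn down to 0 at most; the dotted line separates the batches. In every panel the sciatic nerve groups have the highest means, and each peripheral axon control mean lies above the Cre mean.

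Fibrillar collagens held the largest part of the matrix counts in all 8 group means, above basement membrane genes and other collagens. Their share of all counts was 1.46% ± 0.842 (SD, n = 3) in peripheral axon controls and 0.549% ± 0.164 (n = 4) in peripheral axon Cre libraries, against 0.0215% ± 0.0112 (n = 4) in batch 2 Cre somas. Within the matrix counts of each library they held 48.9% ± 5.14 (n = 4) in batch 2 Cre somas and 65.7% ± 7.23 (n = 3) in peripheral axon controls, which were the lowest and highest of the 8 group means. Basement membrane genes held between 17.5% ± 11.1 (batch 1 soma controls, n = 4) and 29.0% ± 3.79 (batch 2 Cre somas, n = 4) of the matrix counts. The batch 1 soma controls ranged from 1.63%, in the library that stands apart, to 26.2%, so their mean leans on that library. Other collagens held 11.7% ± 0.599 (n = 3) in peripheral axon controls and 25.6% ± 5.13 (n = 4) in central axon Cre libraries. In the latter, the fibril-associated collagens alone were 12.8% ± 3.42 (n = 4) of matrix counts, against 3.87% ± 0.398 (n = 4) in peripheral axon Cre libraries, without overlap.

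The order of genes within a group was compared per length, as CPM per kilobase of merged exon (RPKM). Col1a1, Col3a1 and Col1a2 were the highest 3 matrix genes in all 8 group means. Col1a1 led in 6 of the groups, with 235 ± 91.5 RPKM (n = 4) in peripheral axon Cre libraries, where Col3a1 had 133 ± 26.5 and Col1a2 127 ± 29.1. In central axons Col3a1 led, at 38.5 ± 33.9 RPKM (n = 4) with Cre, and did not differ from Col1a1 at 37.2 ± 32.5 beyond the spread. The next genes differed by tissue. In peripheral axon Cre libraries they were Col5a1 at 68.0 ± 41.4, Lamb1 at 59.4 ± 21.7, Col4a1 at 44.8 ± 10.5 and Nid1 at 35.3 ± 13.6 RPKM, neighbours within each other's spread. In central axon Cre libraries they were Col9a2 at 15.6 ± 9.94, Col9a3 at 15.3 ± 4.96, Col4a2 at 11.5 ± 8.44 and Col4a1 at 9.93 ± 9.30 RPKM. Across the 57 genes the Spearman correlation of group mean RPKM was 0.746 to 0.973 over the pairs of groups, highest between peripheral axon Cre and control, a description of genes that share libraries and gene lengths.

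Col3a1 codes for the chain of type III collagen, abundant in nerve sheaths and vessel walls. It was 1316, 1193, 1059 and 1666 CPM in peripheral axon Cre libraries and 1467, 4759 and 4776 CPM in the controls. The batch 2 somas had 60.4, 91.5, 41.9 and 47.0 CPM with Cre and 248, 645, 1523 and 441 CPM without. Sciatic nerve libraries were thus far above the Cre somas, with no overlap, and each soma control was above each Cre soma. Central axon libraries had 156, 751, 44.3 and 559 CPM with Cre and 948, 638, 1865 and 434 CPM without. In batch 1 somas the Cre libraries had 21.0, 274, 72.8 and 261 CPM and the controls 1167, 12.4, 2103 and 349 CPM.

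Col1a2 codes for the alpha-2 chain of type I collagen, the main collagen of fibrous tissue. Its peripheral axon Cre libraries had 1470, 1487, 1247 and 2091 CPM and the controls 1809, 5803 and 4240 CPM. Batch 2 somas had 56.5, 98.7, 39.4 and 39.3 CPM with Cre and 260, 746, 1057 and 331 CPM without. As with Col3a1, neither nerve group overlapped the Cre somas. Central axons had 114, 457, 100 and 236 CPM with Cre and 659, 380, 785 and 310 CPM without, and batch 1 somas 37.8, 280, 62.6 and 318 CPM with Cre and 613, 173, 1869 and 647 CPM without. Col1a1, the alpha-1 chain of the same trimer, was above Col1a2 per length in 30 of 31 libraries, with a ratio of group means from 1.54 to 3.41.

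Col5a1, Col5a2 and Col5a3, chains of the type V collagen that nucleates and limits fibrils, were each above the batch 2 Cre somas in every peripheral axon Cre library. Col5a1 was 191 to 1037 CPM there and Col5a3 40.6 to 128 CPM, against 14.4 to 50.6 CPM and 2.497 to 6.36 CPM in the somas. Col5a2 was 188, 160, 184 and 258 CPM in peripheral axon Cre libraries and 5.62, 9.64, 4.23 and 4.52 CPM in batch 2 Cre somas. Col11a1, a type XI chain with a similar role, was 62.5 to 184 CPM and 2.57 to 5.14 CPM in the same groups. Col2a1, the main collagen of cartilage, was 11.5 to 39.2 CPM and 0.611 to 3.66 CPM there.

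**Figure D2:**
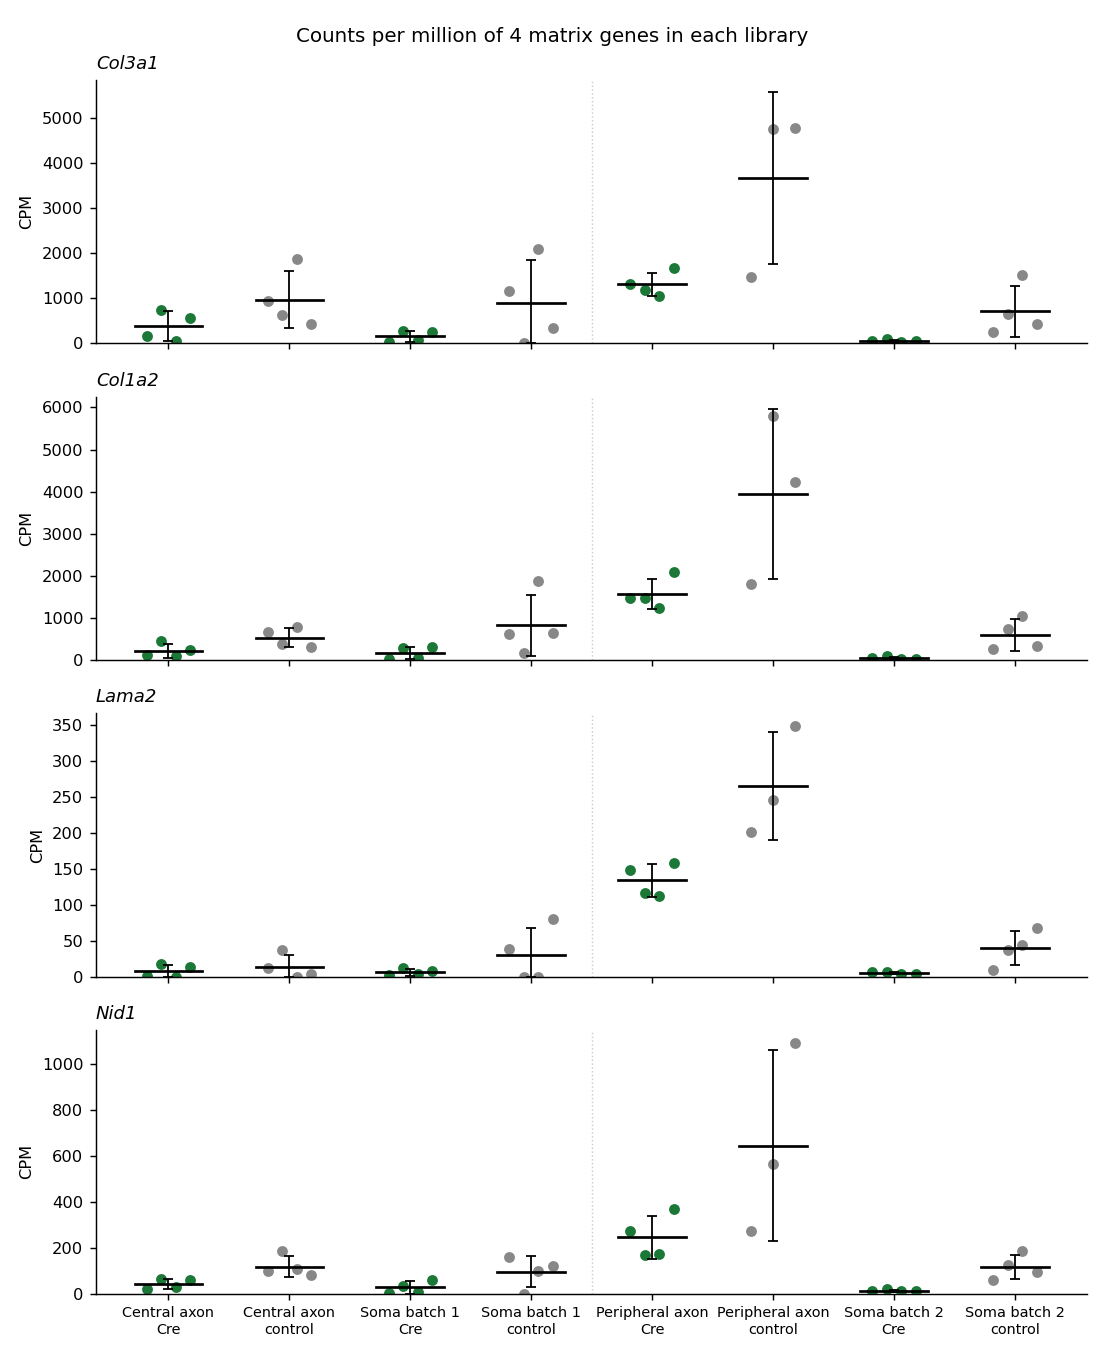
CPM (y axis, from 0) of Col3a1, Col1a2, Lama2 and Nid1 in each library, by group on the x axis. Points are libraries (green Cre, grey control), horizontal bars means and error bars SD, drawn down to 0 at most. In all 4 genes every peripheral axon library lies above every batch 2 Cre soma library, with Lama2 at 112 CPM or more against 7.45 CPM or less.

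Lama2 codes for the laminin alpha-2 chain, whose loss causes a congenital muscular dystrophy with defective Schwann cell basement membranes. It was 149, 117, 112 and 158 CPM in peripheral axon Cre libraries and 201, 245 and 348 CPM in the controls, which did not overlap. Batch 2 somas had 6.68, 7.45, 3.87 and 4.41 CPM with Cre and 9.84, 37.2, 44.4 and 67.3 CPM without. In central axons it was low, at 1.04, 17.8, 0.543 and 13.4 CPM with Cre and 12.8, 36.8, 0 and 3.99 CPM without. Batch 1 soma values were 2.07, 13.0, 3.45 and 8.34 CPM with Cre and 39.4, 0, 0 and 80.2 CPM without, so the controls ranged from undetected to the highest value of this batch.

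Nid1 codes for nidogen-1, the linker between laminin and type IV collagen. It was 271, 170, 171 and 368 CPM in peripheral axon Cre libraries and 273, 562 and 1092 CPM in the controls. Batch 2 somas had 14.0, 19.8, 10.03 and 11.7 CPM with Cre and 60.8, 125, 184 and 95.7 CPM without. Central axons had 21.4, 64.1, 28.8 and 61.1 CPM with Cre and 98.7, 184, 109 and 81.2 CPM without, where every control was above every Cre library. Batch 1 somas had 4.66, 35.5, 8.28 and 61.8 CPM with Cre and 159, 0.971, 97.5 and 121 CPM without.

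Among the other laminin chains, Lama4 (alpha-4, found in Schwann cell and vessel basement membranes) was 420, 230, 311 and 362 CPM in peripheral axon Cre libraries, against 16.7, 16.1, 8.81 and 8.47 CPM in batch 2 Cre somas. Lamb1 (beta-1) was 712, 383, 434 and 828 CPM against 27.8, 21.5, 13.4 and 14.4 CPM, and Lamc1 (gamma-1) was 338, 164, 132 and 389 CPM against 16.8, 13.8, 6.01 and 8.53 CPM. Alpha-2, alpha-4, beta-1 and gamma-1 chains were thus all high in nerve. Lama1, the alpha-1 chain, had another pattern. It was 8.68, 34.6, 16.5 and 22.7 CPM in central axon Cre libraries, 1.26 to 20.4 CPM in peripheral axon Cre libraries, and 0 to 2.24 CPM in the Cre somas of both batches. Its central axon controls had 39.8, 23.8, 0 and 24.8 CPM, within which the Cre values lay. Lama3 was at most 6.89 CPM and Lamc3 at most 7.55 CPM in any library. Lama5 and Lamb3 were low in most, but Lama5 reached 152 CPM in 1 batch 1 soma control and Lamb3 60.5 CPM in 1 central axon control.

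Of the type IV chains, Col4a1 was 371, 319, 233 and 414 CPM and Col4a2 270, 203, 111 and 302 CPM in peripheral axon Cre libraries. The batch 2 Cre somas had 19.9, 31.5, 15.9 and 16.2 CPM of Col4a1 and 15.3, 19.02, 10.3 and 12.6 CPM of Col4a2. Per length Col4a1 was above Col4a2 in 23 of 31 libraries, and the ratio of group means was 0.757 to 2.91. In batch 1 soma controls these head-to-head genes parted, with 87.8, 1.51, 876 and 848 CPM of Col4a1 and 400, 3.45, 137 and 11.8 CPM of Col4a2. Col4a3 and Col4a4 are chains of the type IV collagen known from the kidney glomerulus. Col4a3 was at most 2.58 CPM in any library, and it was 0 in all 3 peripheral axon controls and all 4 batch 2 soma controls. Its neighbour Col4a4 was 45.9 and 106 CPM in 2 batch 1 soma controls and 0 in the other 2. Col4a6 reached 21.3 CPM in 1 central axon control and was 0 in all batch 1 soma controls and all peripheral axon controls.

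Type VI collagen forms a beaded filament network beside basement membranes, and its 6 genes differed. Col6a1 was 105, 98.8, 106 and 130 CPM in peripheral axon Cre libraries, 204, 420 and 343 CPM in the controls and 4.02 to 10.2 CPM in batch 2 Cre somas. Col6a2 was 52.7 to 228 CPM and Col6a3 100.3 to 216 CPM in peripheral axon Cre libraries, against 8.504 to 18.4 CPM and 3.60 to 10.41 CPM in batch 2 Cre somas. Col6a4, Col6a5 and Col6a6 were at most 1.06, 3.90 and 4.45 CPM in the same axon libraries. The fibril-associated type IX chains Col9a2 and Col9a3, known from cartilage, were above the batch 1 Cre somas in every central axon Cre library. Col9a2 was 24.0, 86.5, 22.7 and 59.8 CPM in central axon Cre libraries and 1.45, 10.7, 4.31 and 14.4 CPM in batch 1 Cre somas. It was as high in peripheral axon Cre libraries, at 77.1, 28.1, 31.2 and 77.8 CPM, against 0.509 to 4.87 CPM in batch 2 Cre somas. Col9a3 was 45.5, 70.0, 40.2 and 80.0 CPM in central axon Cre libraries and 67.7, 164, 193 and 90.8 CPM in their controls, against 3.83, 9.35, 0 and 6.35 CPM in batch 1 Cre somas and 45.0, 11.6, 5.86 and 61.0 CPM in peripheral axon Cre libraries. Col23a1, a transmembrane collagen, was 26.3, 32.1, 12.8 and 55.2 CPM in central axon Cre libraries and 0.725, 3.02, 0 and 7.15 CPM in batch 1 Cre somas. Col28a1, a collagen described in peripheral nerve, was 60.3, 31.3, 23.4 and 32.6 CPM in peripheral axon Cre libraries and 1.89, 3.498, 0.452 and 0 CPM in central axon Cre libraries. At the low end, Col17a1, Col6a5 and Col20a1 had few counts in any group. Between 14 (batch 1 soma controls) and 43 (central axon Cre) of the 57 genes had over 3 counts in every library of a group.

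**Figure D3:**
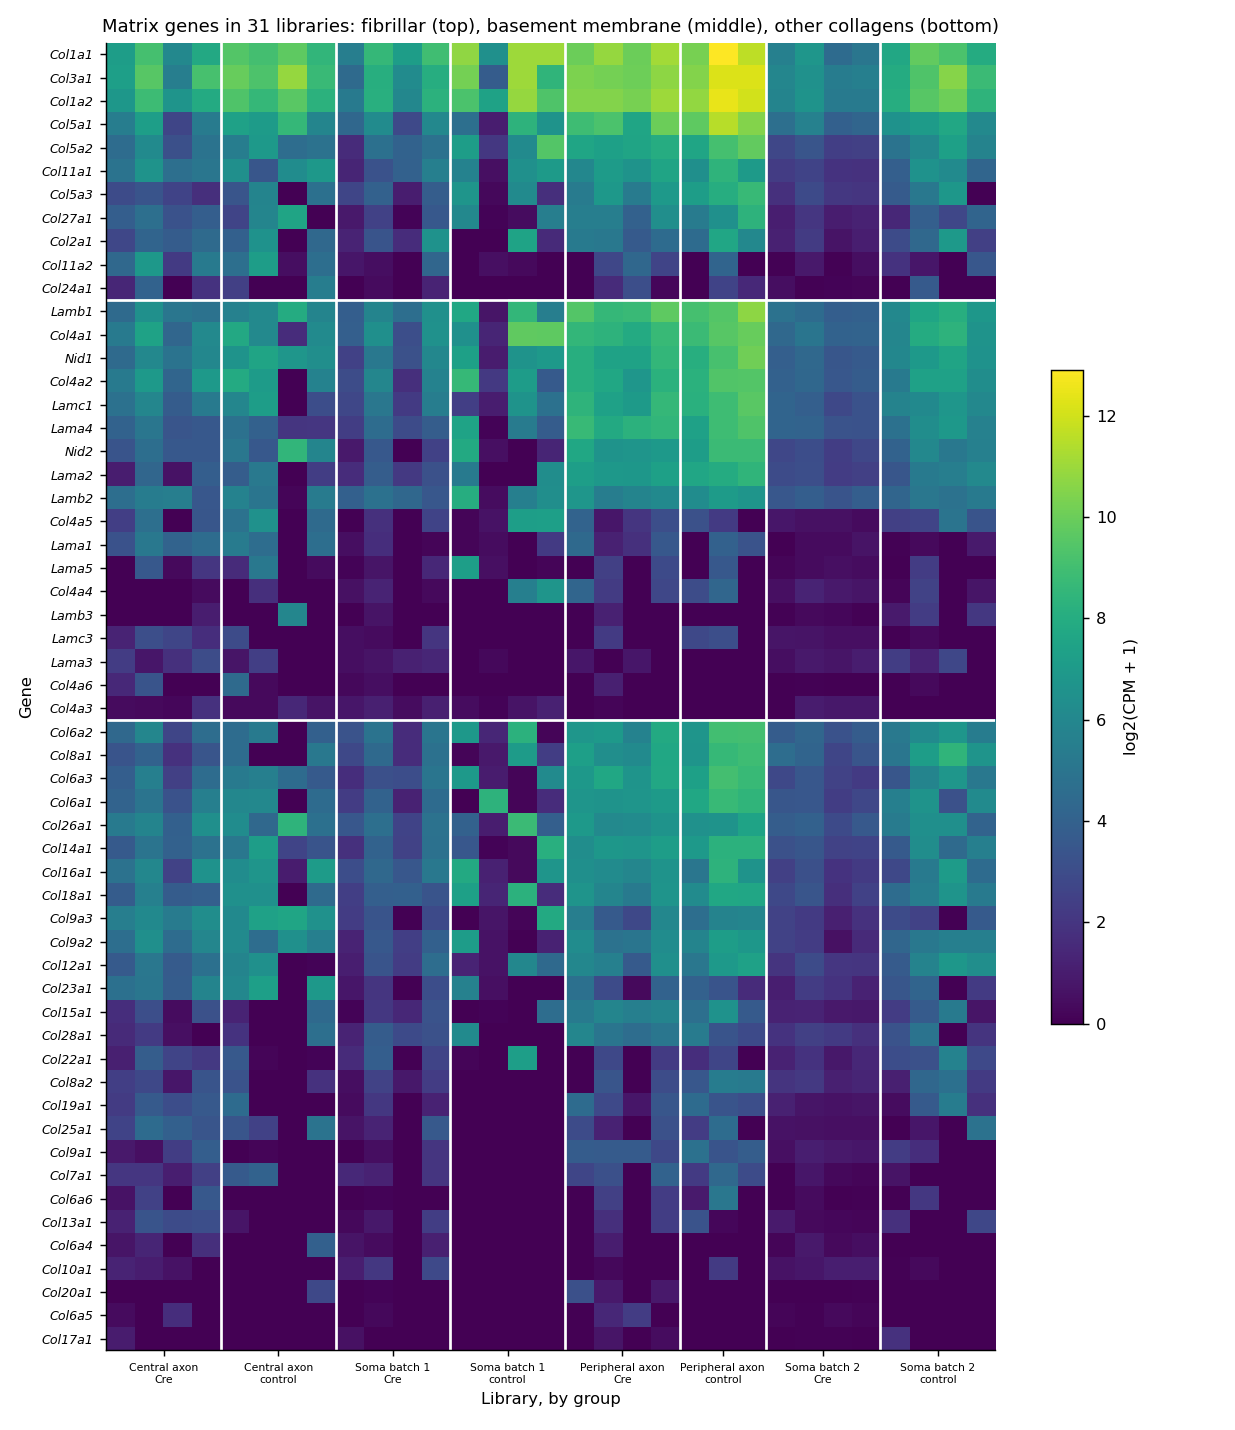
Levels of the matrix genes (rows, by class and then by mean) in the 31 libraries (columns, by group), as log2(CPM + 1) in colour from dark (0) to yellow. Many rows of the fibrillar and basement membrane blocks are brightest in the peripheral axon groups and dim in batch 2 Cre somas. Others, such as Col11a2, Lama1, Lama5 and Col4a5, peak in other groups. The second library of the batch 1 soma controls is dark in most rows.

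Cre libraries were compared with controls to ask which matrix RNA the pulldown enriched. No matrix gene passed an adjusted p of 0.05 (edgeR quasi-likelihood test, Benjamini-Hochberg over all genes) in any of the 4 compartments, and most fitted values lay below 0. In batch 2 somas 41 of the matrix genes were tested and 0 were called, where 0% of all 15280 genes were called in either direction. All 41 had a log2 fold change below 0, where 47.3% of all genes did. The median was -2.75 and that of all genes 0.06. At an unadjusted p under 0.05, 31 were lower and 0 higher, where 9.84% of all genes were lower and 6.54% higher, and DESeq2 called 29, all lower, where it called 6.38% of all genes lower. On the scale of the fit (TMM-scaled CPM, used for every such count) every Cre library lay below every control in 23, where 5.19% of all genes did, and above in 0, where 8.12% did. The other 16 matrix genes were too low to be tested, so the 41 do not stand for all matrix genes. Among the untested, Col4a3 was 0, 0.964, 0.764 and 0.801 CPM with Cre and 0 in every control. Lamb3 went the other way, at 0.0572 to 0.257 CPM with Cre and 0 to 3.95 CPM without.

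Col3a1 had a log2 fold change of -3.26 ± 0.51 (SE), Col1a2 of -3.06 ± 0.48, Nid1 of -2.78 ± 0.40 and Lamb1 of -2.76 ± 0.44 in this comparison, each with an edgeR adjusted p of 0.051. Lama2 had -2.56 ± 0.63 (adjusted p = 0.0814). The count rested on single libraries: without soma control 5 of batch 2 edgeR called 28 matrix genes, without control 7 it called 22, and without any of the other 6 libraries it called 0. Most lists of markers of other cells moved with the matrix fold changes. Summed fibroblast markers (6 genes) were 92.8 to 129 CPM in Cre and 240 to 922 CPM in control libraries, summed Schwann cell markers (6 genes) 320 to 592 and 539 to 1491 CPM, summed satellite glia markers (3 genes) 124 to 275 and 422 to 2238 CPM, summed endothelial markers (6 genes) 4.86 to 13.8 and 35.2 to 85.3 CPM, and summed skeletal muscle markers (5 genes) 15.5 to 80.0 and 31.3 to 1015 CPM, while sensory neuron markers (6 genes) were 9223 to 10687 and 5594 to 9053 CPM. By fitted value 4 of 5 tested fibroblast, 5 of 6 Schwann cell, 3 of 3 satellite glia, 6 of 6 endothelial and 4 of 4 skeletal muscle markers lay below 0, with medians of -2.48, -2.24, -1.82, -2.19 and -2.40. Of the remaining lists, 2 of 4 perineurial, 1 of 3 astrocyte and 4 of 5 mural markers lay below 0, with medians of -1.30, 0.01 and -0.63. So did 5 of 5 macrophage and microglia and 2 of 2 oligodendrocyte markers, with medians of -1.25 and -2.76. No list had a gene called and none of the defining fibroblast or Schwann markers was at 0 throughout a group. Their part in the result was not tested.

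In batch 1 somas 33 matrix genes were tested, 0 were called (4.42% of all 11667 genes were, 4.37% higher and 0.0514% lower), and 33 had a log2 fold change below 0, as did 57.1% of all genes. The median was -2.63 and that of all genes -0.45. At an unadjusted p under 0.05, 8 were lower and 0 higher, where 6.57% of all genes were lower and 8.44% higher, and DESeq2 called 8, all lower, where it called 4% of all genes lower. On the TMM scale every Cre library lay below every control in 4 (1.37% of all genes) and above in 0 (14.5%). The 4 were Col1a1, Col1a2, Col3a1 and Col5a2, and they rest on the scaling of soma control 3, whose factor in this fit was 0.0547. In CPM of the library total control 3 lay within or below the Cre libraries for each of them, as the values of Col3a1 and Col1a2 above show, and 0 matrix genes were below without overlap (0.429% of all genes). Col1a2 had -3.72 ± 1.54 (edgeR adjusted p = 0.284) and Col5a2 -4.08 ± 1.28 (adjusted p = 0.141). Without soma control 3, the library that stands apart, 5 matrix genes were called, and without Cre library 3 it was 1. Without the filter on low counts 3 were called, all higher with Cre, so the 33 do not stand for all matrix genes. Fibroblast markers were 64.0 to 187 CPM in the Cre and 266 to 628 CPM in the control libraries, where Dpt was at 0 in all 4, and Schwann cell markers 262 to 1297 and 21.2 to 4665 CPM. By fitted value 3 of 4 tested fibroblast and 5 of 5 Schwann cell markers lay below 0, with 1 fibroblast marker at 7.04. Above 0 lay 2 of 3 tested perineurial markers (median 4.68) and the 1 tested macrophage and microglia marker (5.93). Over all lists 27 of 35 tested markers lay below 0 and 8 above. Summed skeletal muscle markers (5 genes) were 19.3 to 86.8 CPM in the Cre libraries and 2.05 to 9850 CPM in the controls, and the part of these cells in the values was not tested.

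In central axons 45 matrix genes were tested and 0 were called (0.0141% of all 14189 genes were); 35 lay below 0, where 44.9% of all genes did. The median was -0.69 and that of all genes 0.11. At an unadjusted p under 0.05, 4 were lower and 1 higher, where 1.62% of all genes were lower and 3.2% higher, and DESeq2 called 0. Nid1 was the 1 gene whose Cre libraries all lay below the controls (1.37% of all genes) and Col13a1 the 1 gene whose Cre libraries all lay above (6.77%). All 11 fibrillar collagens lay below 0. Nid1 had -1.40 ± 0.54 (edgeR adjusted p = 0.829), Nid2 -3.03 ± 1.02 (0.611) and Col1a1 -1.28 ± 0.56 (0.99). Nid2 was 354 CPM in control 3 and 34.2, 10.9 and 58.7 CPM in the other controls. Its fold change ranged from -3.40 to -1.32 when a library was left out. Lama2 had -0.69 ± 1.76 and turned to 0.49 without control 2. Col13a1, a transmembrane collagen, was the gene with the unadjusted higher value. It had 1.32, 9.33, 6.78 and 7.47 CPM with Cre and 0.646, 0, 0 and 0 CPM without. Astrocyte markers (5 genes) were 277 to 1238 CPM in the Cre and 1222 to 2125 CPM in the control libraries, and fibroblast markers 111 to 137 and 65.0 to 211 CPM. By fitted value 5 of 5 astrocyte and 3 of 5 tested fibroblast markers lay below 0. Lists also went the other way, with 3 of 3 tested skeletal muscle markers (median 1.75) and 2 of 2 perineurial markers (median 0.13) above 0. Over all lists 28 of 48 tested markers lay below 0 and 20 above. The part of these cells in these values was not tested.

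In peripheral axons 47 matrix genes were tested, 0 were called (0% of all 13970 genes were), and 40 lay below 0, where 46.9% of all genes did. The median was -0.97 and that of all genes 0.07. At an unadjusted p under 0.05, 17 were lower and 0 higher, where 1.59% of all genes were lower and 2.09% higher, and DESeq2 called 0. In 4 every Cre library lay below every control (2.59% of all genes) and in 0 above (3.77%). Col3a1 had -1.43 ± 0.54, Lama2 -0.90 ± 0.34, Nid1 -1.31 ± 0.48 and Col6a1 -1.50 ± 0.38, each with an edgeR adjusted p of 1.00. Fibroblast markers were 542 to 931 CPM in the Cre and 804 to 2361 CPM in the control libraries, skeletal muscle markers 620 to 2440 and 976 to 19235 CPM, and Schwann cell markers 7069 to 18474 and 6026 to 11232 CPM. Their part in these values was not tested.

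**Figure D4:**
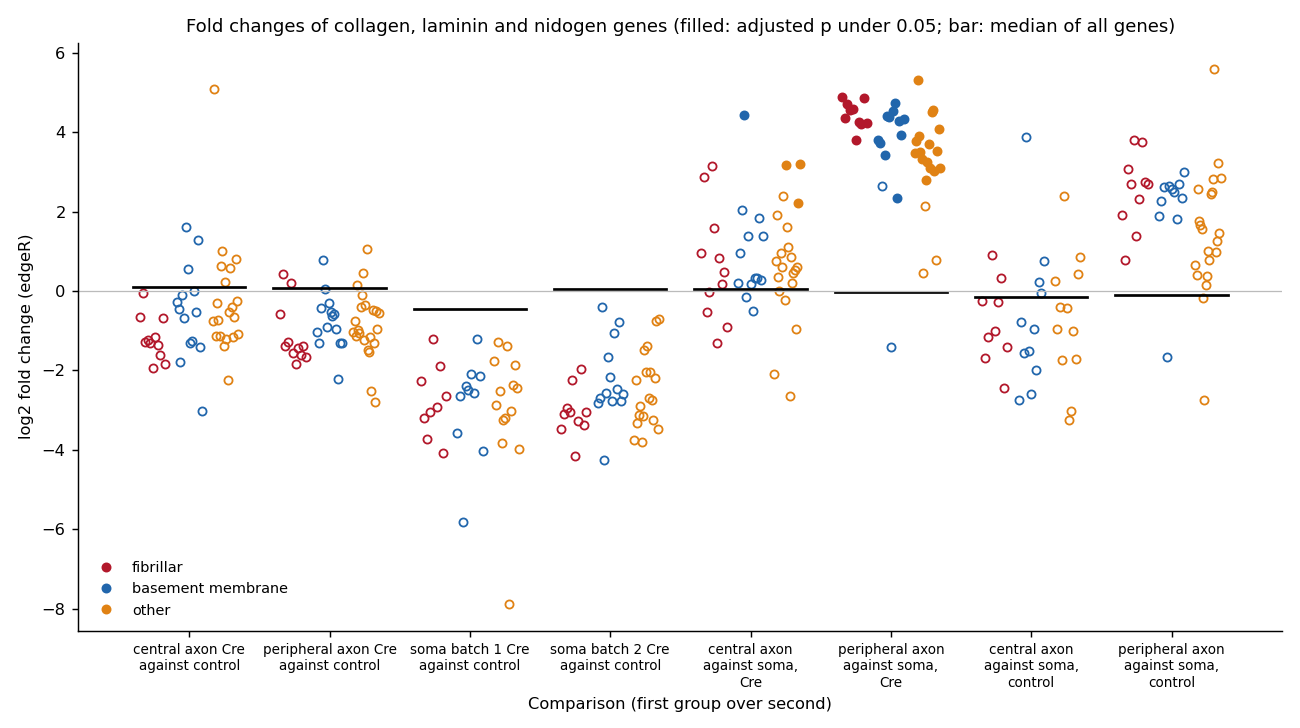
Log2 fold changes (y axis) of the tested matrix genes in 8 comparisons of 2 groups (x axis), coloured by class; filled points passed an adjusted p of 0.05, and black bars are the median of all genes tested. Filled points occur in peripheral axon against soma (37 genes) and central axon against soma (4 genes), both among Cre libraries, and all tested matrix genes of both soma comparisons with controls lie below 0.

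Axon and soma Cre libraries of a batch were compared to ask which RNA differed between the compartments. In batch 2, 37 of 42 tested matrix genes were higher in peripheral axons and 0 lower, where 18.7% of all 15467 genes were higher and 12.5% lower. The 37 were 10 of 10 tested fibrillar collagens, 11 of 13 basement membrane genes and 16 of 19 other collagens. The largest change among the matrix genes in this fit was that of Col15a1, a multiplexin found in basement membrane zones, at 5.31 ± 0.42 on the log2 scale (edgeR adjusted p = 2.22e-05). The 15 genes that were not tested had too few counts, so the tested genes are not a sample of all members, and without the filter on low counts 38 of 57 were called. Leaving out single libraries gave 33 to 41, of which up to 2 were lower. In 33 every axon library lay above every soma library (18.6% of all genes) and in 0 below (20.1%).

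Of the fibrillar collagens, Col5a2 rose by 4.85 ± 0.35 (edgeR adjusted p = 1.95e-05), Col1a1 by 4.70 ± 0.55 (0.000125), Col1a2 by 4.55 ± 0.40 (2.79e-05) and Col3a1 by 4.24 ± 0.34 (2.22e-05), all on the log2 scale. Of the basement membrane genes, Lama2 rose by 4.38 ± 0.30, Lama4 by 4.53 ± 0.32 and Nid2 by 4.34 ± 0.31 (each with an edgeR adjusted p of 1.95e-05), Lamb1 by 4.73 ± 0.35 (2.12e-05), Nid1 by 3.92 ± 0.33 (2.51e-05) and Col4a1 by 3.79 ± 0.31 (2.22e-05). Lamb2, the beta-2 chain, rose least of the called laminins, by 2.34 ± 0.33 (0.000359). The tested genes without a call were Col4a4, Col23a1, Lama3, Col8a2 and Col22a1, of which Lama3 had a value below 0. Col4a3bp had 0.29 ± 0.26 (0.411).

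Several lists of markers of other cells moved with this comparison. Schwann cell markers were higher in 6 of 6 genes and summed to 7069 to 18474 CPM in peripheral axon and 320 to 592 CPM in soma Cre libraries. Fibroblast markers were higher in 4 of 5 tested genes (542 to 931 and 92.8 to 129 CPM), endothelial markers in 6 of 6 (71.5 to 153 and 4.86 to 13.8 CPM), mural markers in 6 of 6 (218 to 312 and 41.3 to 61.4 CPM) and skeletal muscle markers in 4 of 4. Other lists moved in part: perineurial markers were higher in 2 of 4 tested genes and macrophage and microglia markers in 2 of 5. Oligodendrocyte markers were higher in 1 of 2, satellite glia markers in 1 of 3 and astrocyte markers in 1 of 3. Sensory neuron markers were lower in 6 of 6 genes, at 1279 to 5200 and 9223 to 10687 CPM. No gene of the Schwann or fibroblast list was at 0 throughout a group, and the part of these cells in the matrix result was not tested.

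Between the controls of the same batch, which hold RNA recovered without Cre, 42 matrix genes were tested. Of these, 39 had a log2 fold change above 0 and 3 below, where 53.3% of all 13715 genes were below 0. In the adjusted test 0 passed (0.0656% of all genes were higher and 0.0146% lower, 0.0802% in all), 23 were higher and 0 lower at an unadjusted p under 0.05 (4.92% and 4.86% of all genes), and DESeq2 called 17, all higher (2.17%). In 22 every axon control was above every soma control, where 7.73% of all genes were, and in 1 below, where 8.47% were. Col5a1 had 3.75 ± 0.64 (edgeR adjusted p = 0.0758), Nid2 3.00 ± 0.60 (0.119), Lama2 2.64 ± 0.61 (0.164), Nid1 2.34 ± 0.54 (0.164), Col1a2 2.69 ± 0.68 (0.191) and Col3a1 2.31 ± 0.71 (0.268). Without peripheral axon control 1 edgeR called 2, and without control 4 it called 1.

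In batch 1, 4 of 45 tested matrix genes were higher in central axons than in somas with Cre and 0 lower, where 8.63% of all 14480 genes were higher and 5.11% lower. The 4 of 45 lay near the share of all genes, so this count does not set the matrix genes apart. These were Lama1 at 4.43 ± 1.02 (edgeR adjusted p = 0.0138), Col9a3 at 3.19 ± 0.80 (0.0209), Col23a1 at 3.17 ± 0.94 (0.0411) and Col9a2 at 2.23 ± 0.63 (0.0337), each without overlap of the libraries. In all, 5 genes were higher without overlap, below the 13.5% of all genes, and 0 lower (8.67%). Col3a1 had 0.84 ± 0.77, Nid1 0.27 ± 0.63, Lama2 -0.16 ± 0.96 and Col1a2 -0.02 ± 0.61, none past the test. The count of 4 rested on single libraries: without central axon Cre library 2 it was 0, without library 4 it was 1, without soma Cre library 1 it was 1, without library 2 it was 2, and without library 4 it was 6. Among controls 32 matrix genes were tested and 0 were called (0% of all 9202 genes were; 0 at an unadjusted p under 0.05 and 0 by DESeq2). Of the 32, 23 lay below 0, where 52.9% of all genes did, and 0 were without overlap in either direction (11.6% of all genes higher, 2.04% lower). Lama1 had 3.88 ± 2.30 (edgeR adjusted p = 0.525) there.

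Astrocyte markers were higher in 5 of 5 genes in this comparison of Cre libraries, with sums of 277 to 1238 CPM in central axons and 1.98 to 12.8 CPM in somas, and oligodendrocyte markers in 2 of 3 tested genes. Satellite glia markers were higher in 2 of 3 genes, fibroblast markers in 1 of 5 tested and endothelial markers in 1 of 6. Of the mural markers 1 of 5 tested was lower, and of the sensory neuron markers 1 of 6. Astrocyte sums were 1222 to 2125 CPM in the central axon controls and 0.251 to 3.78 CPM in the batch 1 soma controls. Opalin, an oligodendrocyte marker, was at 0 in the Cre libraries of both compartments. The part of these cells in the 4 called genes was not tested.

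**Figure D5:**
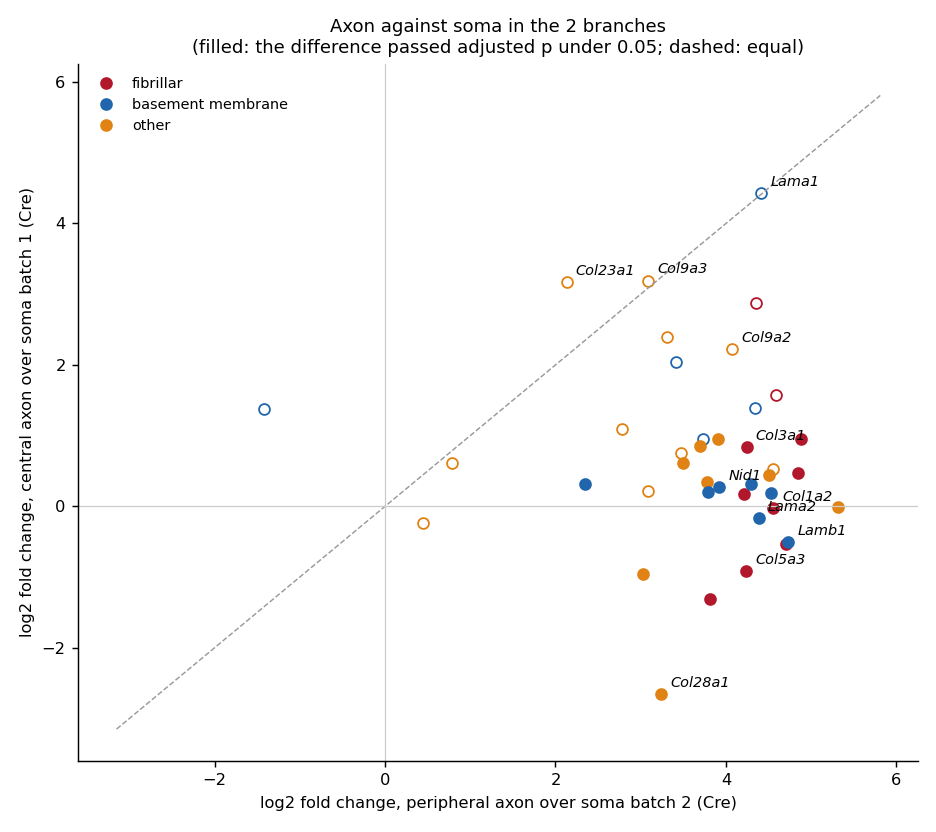
Log2 fold change of axon over soma among Cre libraries in the central branch (y axis, batch 1) and the peripheral branch (x axis, batch 2) for the 40 matrix genes tested in both, coloured by class. Filled points passed the test of the difference between the branches and the dashed line marks equality; 36 genes lie below it, while Lama1 and Col9a3 lie near the line.

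The difference between the branches was tested in a fit over the 4 Cre groups, each axon relative to the somas of its own batch. Of 52 tested matrix genes, 23 had a lower axon-to-soma ratio centrally than peripherally and 0 a higher one, where 5.88% of all 16725 genes were lower and 7.2% higher. They were 8 of 11 fibrillar collagens, 7 of 17 basement membrane genes and 8 of 24 other collagens. Lamb1 differed by -5.08 ± 0.71 on the log2 scale (edgeR adjusted p = 0.0003), Lama4 by -4.20 ± 0.66 (0.000735), Col1a2 by -4.42 ± 0.81 (0.00202), Nid1 by -3.49 ± 0.79 (0.00748), Lama2 by -4.38 ± 1.03 (0.00986) and Col3a1 by -3.24 ± 0.95 (0.0296). Col28a1 had -5.76 ± 1.19 (0.00438). The call of Col3a1 was lost, with edgeR adjusted p up to 0.0639, when any one of these Cre libraries was left out: central axon 1, batch 1 soma 2 or 4, peripheral axon 4, or batch 2 soma 5, 7 or 8. Lama1, at 0.14 ± 1.83, and Col9a3, at 0.25 ± 1.13, did not pass, and neither did Col9a2 at -1.67 ± 0.91 or Col23a1 at 1.18 ± 1.40. DESeq2 called 29, all lower (9.64% of all genes), and leaving out single libraries gave 18 to 27. This test uses the same libraries as the 2 axon comparisons above, and the branches differ in batch and tissue as well. Schwann cell markers differed in 5 of 6 genes, all lower centrally, fibroblast markers in 2 of 6, and skeletal muscle markers in 4 of 4, while astrocyte markers were higher in 4 of 5, and their part was not tested.

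The Cre-against-control change was also compared between axon and soma of a batch. In batch 2, 0 of 47 tested matrix genes passed (0.00636% of all 15717 genes did), 16 were higher and 0 lower at an unadjusted p under 0.05 (7.23% and 2.51% of all genes), and DESeq2 called 0. Col3a1 had 1.74 ± 0.72 (edgeR adjusted p = 0.44), where the axons alone gave -1.43 and the somas -3.26. In batch 1, 0 of 50 passed (0% of all 15355 genes did), 5 were lower and 0 higher at an unadjusted p under 0.05, where 17.2% of all genes were lower and 3.18% higher, and DESeq2 called 2, both lower (2.92%), so the 5 of 50 lay below the share of all genes.

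The partners of these proteins were read from a list of 54 genes: enzymes that modify and process collagen, partners of basement membranes and of fibrils, receptors, and turnover genes. In peripheral axon against soma with Cre, 39 of 50 tested were higher and 1 lower, where 18.7% of all genes were higher and 12.5% lower. By role, 15 of 17 modifying and processing enzymes were higher, 5 of 5 basement membrane partners, 9 of 12 fibril partners, 7 of 11 receptors and 3 of 5 turnover genes. Serpinh1, the collagen chaperone HSP47, rose by 4.18 ± 0.37 on the log2 scale, Hspg2, the heparan sulfate proteoglycan perlecan, by 4.51 ± 0.52, and Itga6, the laminin-binding integrin alpha-6 subunit, by 4.65 ± 0.39. Bcam, a laminin receptor, fell by 1.38 on the log2 scale. In central axons against somas 3 of 50 were higher and 1 lower, below the 8.63% and 5.11% of all genes. Agrn (agrin) rose by 2.53 ± 0.44, Bmp1 and Colgalt1 were the other higher genes, and Bcam fell by 1.48. In the difference between branches 20 of 51 were lower centrally and 0 higher, where 5.88% of all genes were lower and 7.2% higher. Between Cre and control no gene of the list was called in any compartment, while at an unadjusted p under 0.05 31 of 51 tested were lower in batch 2 somas (9.84% of all genes), 10 of 45 in batch 1 somas (6.57%), 11 of 50 in peripheral axons (1.59%) and 4 of 48 in central axons (1.62%).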

How the data were processed

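The values are raw counts per gene, in whole numbers, as the authors deposited them in 2 tables, 1 per batch. STAR 2.7.2b and mm10 are named per the submitters' processing notes; the counting program and strand setting are not given in the sources used here, so reads of overlapping antisense genes cannot be told apart (at most 8.45% of a member's exon length). The labels' protocols name a SMART-Seq kit. All gene identifiers matched GENCODE M21. A single name heads 2 batch 1 soma control columns, which were assigned to their group only. The labels call the libraries biological replicates.

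Only the groups compared entered a fit (edgeR 4.0.16, R 4.3.3: filterByExpr, TMM scaling, glmQLFit and glmQLFTest), and p-values were adjusted over all genes by Benjamini-Hochberg; called means an adjusted p under 0.05. The SE was taken as the size of the log2 fold change over the root of F. CPM divides by the library total, and RPKM also by merged exon length. The code was tested on simulated data. Alternatives were DESeq2 1.42.0, RLE scaling, library size alone, no filter, a replicate block and leaving out libraries. Members and lists were chosen with earlier results of these data known. By rule the text names Col3a1, Col1a2, Lama2 and Nid1, up to 10 called members per direction by adjusted p, the highest member of each class by RPKM, and the genes of locus pairs, except 1 member that is counted in the totals but not reported here by itself; other genes were chosen after their values were seen. Same-numbered libraries were not treated as pairs: in no comparison were the correlations of deviations above 0.1 in every pair. With so few libraries this check cannot exclude pairing.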

Additional observations from a re-analysis of the deposited data

Results flagged for a closer look

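The direct test of the branches found 23 matrix genes whose axon-to-soma ratio among Cre libraries was lower centrally than peripherally. The named genes among them had these differences on the log2 scale: -5.08 for Lamb1, -4.20 for Lama4, -4.42 for Col1a2, -5.01 for Col5a3, -5.06 for Col1a1, -4.21 for Col5a2, -5.76 for Col28a1, -3.49 for Nid1, -3.82 for Lamc1, -3.26 for Col14a1, -4.38 for Lama2 and -3.24 for Col3a1. The summed matrix share and the CPM of Col3a1, Col1a2, Lama2 and Nid1 were screened for a library far from the others in the groups of 4, and 0 of 35 sets of values held one, where chance gives about 1 in 20.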

How the results depend on the processing

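Peripheral axon against soma with Cre, with 37 called, all higher, gave 37 or 38, all higher, with DESeq2, other scaling or no filter, and 33 to 41 when a library was left out, of which up to 2 were lower. Between Cre and control in batch 2 somas, 0 called became 29 with DESeq2, 5 with RLE scaling, 20 with library size alone, 14 without the filter on low counts, and 0 to 28 when a library was left out. In batch 1 somas 0 became 8 with DESeq2, 3 (all higher) without the filter, and 0 to 5 when a library was left out; there the median of all genes moved from -0.45 to -0.67 with RLE scaling and 0.36 with library size alone, and the mean matrix share of the controls from 0.588% to 1.02% with TMM-normalised totals. With CPM of the library total in place of TMM-scaled CPM, chosen after seeing the data, the 4 matrix genes of batch 1 somas that were lower in Cre without overlap became 0, and the other 15 such counts moved by at most 1.5 times. Between peripheral axon and soma controls 0 became 17 with DESeq2, 17 without the filter and 0 to 2 when a library was left out. The difference between axon and soma in batch 1 gave 2 with DESeq2 and 1 without the filter. Central axon against soma with Cre gave 0 to 6 when a library was left out, and the difference between branches 18 to 27.

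Uncalled values near 0 changed sign. Between central axon and soma with Cre, Col1a2 went from -0.02 to 0.021 with DESeq2 and with RLE scaling, to 0.38 with library size alone, and to between -0.63 and 0.39 when a library was left out. Lama2 went to 0.30 with library size alone and to between -0.93 and 0.33, and Nid1 to between -0.088 and 0.98, when a library was left out. Between the controls, Col3a1 went to 0.10 with library size alone and to between -0.89 and 0.63, and Nid1 to 0.33 with library size alone, to 0.18 without the filter and to between -0.28 and 0.28. Lama2 between central axon Cre and control ranged from -1.46 to 0.49. The cause was not tested.

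With the replicate block, Col1a2 in central axon against soma with Cre was 0.19, Lama2 in central axon Cre against control 0.23, and Col3a1 and Nid1 between the controls 0.90 and 0.47. The block called 6 in central axon against soma with Cre, where 4 were called without it, and 0 in the other 5 comparisons it could be run in. Whether the numbers pair the samples was not settled, and not every library correlated best with its own number. In central axon Cre against control it moved the members' median from -0.69 to 0.23 and that of all genes from 0.11 to 0.77. Depths of 3601399 to 19637292 counts limit the low members, of which 5 to 25 were not tested in a comparison.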
